A study of Mus musculus with 10 samples.

Results

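The genes described here are 39 interferon-stimulated genes of the mouse, followed in the livers of fat-fed animals that carried or lacked hepatic Cpt1a. They were taken by symbol from a fixed list, which was chosen with earlier results of these data known. Of these, 39 of 39 were found among the 51911 genes of the deposited table. The liver libraries fall into a pair of groups, both from C57BL/6 mice that received a high-fat diet (HFD) for 8 weeks. The first holds 5 libraries of Cpt1a L-/- mice, named knockout (KO) replicates 1 to 5, and the second 5 libraries of wild type (WT) mice, replicates 1 to 5. Cpt1a encodes carnitine palmitoyltransferase 1A, the outer mitochondrial membrane enzyme that admits long-chain fatty acids to oxidation. The labels give neither the promoter that drove the deletion nor the age of the mice, and the series title speaks of hepatic CPT1A. No control group on another diet was analysed here, and every library shares the HFD.

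Interferons are secreted proteins that warn cells of viral and microbial nucleic acids. Type I and type III interferons bind paired receptors whose kinases phosphorylate STAT2, which joins IRF9 in a complex that binds the interferon-stimulated response element (ISRE), whereas interferon gamma acts mainly at GAS elements. The induced genes encode RNA sensors, nucleases and their activators, the ubiquitin-like modifier ISG15, GTPases that attack intracellular microbes, and the factors STAT2, IRF7 and IRF9 themselves. In liver such genes are transcribed by hepatocytes as well as by Kupffer cells, endothelial cells and lymphocytes. Whole-liver RNA does not tell a different number of such cells from a different amount of RNA per cell.

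Sequencing depth was alike in both genotypes, at 23990970 to 25200273 counts in knockout libraries and 20599078 to 26955922 in wild type libraries, so that 3 counts equal 0.111 to 0.146 CPM, which are counts scaled to a common library total. Cpt1a itself averaged 80.04 ± 9.19 CPM in knockout and 430.1 ± 85.8 CPM in wild type livers (SD, n = 5 each). No knockout library reached a wild type one, and edgeR gave a log2 fold change of -2.43 with an adjusted p of 1.92e-05. Hepatocyte transcripts dominated every library, Alb alone averaging 57828 CPM in knockout and 65324 CPM in wild type livers. The libraries also divided along an axis other than genotype. The first principal component of the 13348 tested genes outside the interferon, antigen presentation and cell marker lists held 34.2% of their variance, with knockout replicates 2, 3 and 5 and wild type replicates 1 and 2 on its positive side and the other 5 libraries on its negative side.

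All 39 genes passed the filter on low counts, and none passed the test for a different level in knockout and wild type livers. The largest differences were in the synthetase genes Oas1g and Oas1a and in Ifi44, each higher in every knockout library than in any wild type library, and the factor gene Irf7 came next. Over the 13619 genes tested, edgeR's quasi-likelihood test with Benjamini-Hochberg adjustment gave an adjusted p under 0.05 to 18 genes, a background of 0.132%, of which 11 were higher (0.0808%), and to 0 of the 39, the smallest adjusted p being 0.124 for Oas1g. At an unadjusted p under 0.05 stood 7 of the 39 (17.9%), each higher in the knockout, against 2.56% of all genes tested that were higher and 4.82% in either direction. The fold change was positive for 31 of the 39 (79.5%), against 44.7% of all genes, and its median was 0.17 on the log2 scale (interquartile range 0.02 to 0.39), against -0.02 (-0.14 to 0.10) over all genes. Over the alternatives in scaling, filter, tool and libraries, 26 to 35 of the 39 were positive. In CPM, knockout libraries lay wholly above wild type libraries for 3 of the 39 genes (7.69%), where 0.521% of all genes did so. These 3 were Oas1g, Oas1a and Ifi44. Genes of one pathway are not independent of each other, and none of these shares was tested. The list was also chosen with earlier results of these data known, so its contrast with all genes may partly reflect that choice. DESeq2 called those 3 genes and no other of the 39, against a background of 0.683% of all genes in either direction and 0.382% higher, and limma called 0 of the 39. Replicates are taken from the sample titles, which do not say whether each is an animal of its own, and every p-value reflects only how far these libraries varied.

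**Figure D1:**
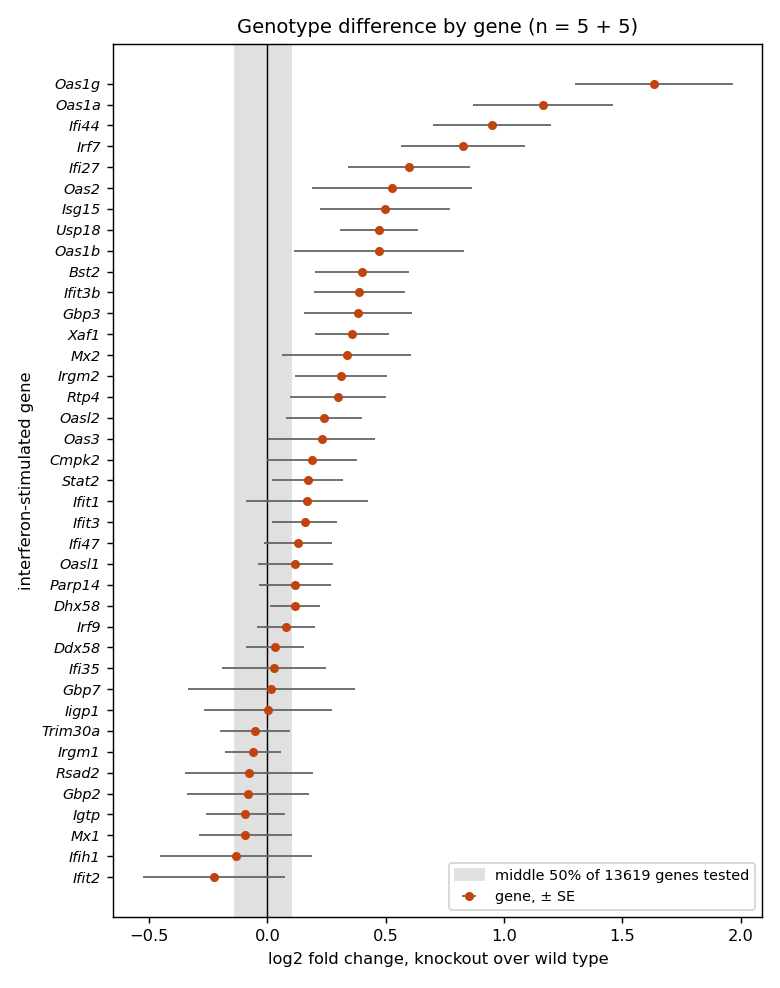
Log2 fold change, knockout over wild type, of each of the 39 interferon-stimulated genes (points, with SE; n = 5 libraries per genotype), ordered from the highest down; the grey band spans the middle 50% of all 13619 genes tested. Fold changes run from 1.63 for Oas1g to -0.23 for Ifit2, and 31 of 39 points lie right of 0.

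Promoter windows of 7 of the genes are shown because the ISRE, where it occurs, lies in such sequence. Windows of 300 bases, from 250 before to 50 after the start site, were taken from RefSeq annotation of GRCm38.p6 and are written 5′ to 3′ on the strand of the gene. Capitals mark each match to the ISRE core, which reads GAAA, then NN for any pair of bases, then GAAA, or to its reverse complement, and overlapping matches run together. Oas1g, Oas1a and Irf7 stood high in knockout replicates 3 and 5, Isg15 and Bst2 are abundant genes of that behaviour, and Rsad2 and Ifih1, whose fold changes were near or below 0, are shown beside them.
Oas1g (chr5:120887564-120887863, minus strand): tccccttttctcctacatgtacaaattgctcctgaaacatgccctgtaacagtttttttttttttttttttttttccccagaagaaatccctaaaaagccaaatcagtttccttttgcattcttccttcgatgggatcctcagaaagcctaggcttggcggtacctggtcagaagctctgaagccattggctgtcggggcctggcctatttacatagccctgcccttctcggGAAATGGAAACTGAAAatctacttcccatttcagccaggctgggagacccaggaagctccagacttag
Oas1a (chr5:120907476-120907775, minus strand): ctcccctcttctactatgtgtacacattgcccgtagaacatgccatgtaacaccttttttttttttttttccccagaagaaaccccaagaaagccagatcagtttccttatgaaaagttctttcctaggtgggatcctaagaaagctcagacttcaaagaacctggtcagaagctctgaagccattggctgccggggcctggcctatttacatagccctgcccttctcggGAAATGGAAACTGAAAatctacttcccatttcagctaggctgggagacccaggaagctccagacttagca
Isg15 (chr4:156200769-156201068, minus strand): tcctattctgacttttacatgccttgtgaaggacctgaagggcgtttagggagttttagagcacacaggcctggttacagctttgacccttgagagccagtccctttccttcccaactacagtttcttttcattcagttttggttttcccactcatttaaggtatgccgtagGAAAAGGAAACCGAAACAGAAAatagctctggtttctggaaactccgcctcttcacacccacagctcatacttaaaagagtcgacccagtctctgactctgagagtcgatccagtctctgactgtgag
Bst2 (chr8:71537423-71537722, minus strand): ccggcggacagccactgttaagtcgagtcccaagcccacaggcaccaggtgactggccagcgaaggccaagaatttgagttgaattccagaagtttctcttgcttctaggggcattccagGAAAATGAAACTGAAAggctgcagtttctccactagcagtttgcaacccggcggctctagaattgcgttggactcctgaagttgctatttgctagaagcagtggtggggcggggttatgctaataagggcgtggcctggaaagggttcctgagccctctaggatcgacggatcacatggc
Rsad2 (chr12:26456403-26456702, minus strand): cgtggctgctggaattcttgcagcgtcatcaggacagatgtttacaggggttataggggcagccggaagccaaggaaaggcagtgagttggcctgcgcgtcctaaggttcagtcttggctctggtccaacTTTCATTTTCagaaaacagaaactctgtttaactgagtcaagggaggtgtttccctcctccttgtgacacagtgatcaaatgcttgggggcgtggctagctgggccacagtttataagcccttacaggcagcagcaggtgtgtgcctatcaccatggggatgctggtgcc
Ifih1 (chr2:62646206-62646505, minus strand): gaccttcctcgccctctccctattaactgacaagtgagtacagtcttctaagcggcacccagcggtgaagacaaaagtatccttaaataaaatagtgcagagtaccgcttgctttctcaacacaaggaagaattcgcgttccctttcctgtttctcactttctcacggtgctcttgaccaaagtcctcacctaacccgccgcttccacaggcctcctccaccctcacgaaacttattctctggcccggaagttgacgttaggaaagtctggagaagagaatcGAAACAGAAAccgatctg
Irf7 (chr7:141266375-141266674, minus strand): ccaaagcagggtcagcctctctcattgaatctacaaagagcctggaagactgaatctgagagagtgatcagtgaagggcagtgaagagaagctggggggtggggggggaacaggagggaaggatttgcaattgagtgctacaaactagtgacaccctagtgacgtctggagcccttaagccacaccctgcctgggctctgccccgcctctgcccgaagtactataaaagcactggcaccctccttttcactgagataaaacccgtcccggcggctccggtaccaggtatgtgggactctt
Among the windows of the 39 genes, 20 of 33 held the core on either strand, and 19 of the 29 genes with a window had such a window. The same letters occurred in 1131 of 32851 windows of the whole annotation (3.44%). The GAS letters TTCNNNGAA, which read the same on both strands, occurred in 7 of the 33 windows and in 8.3% of all windows, and overlapped an ISRE core in 1 of the 33. Oas1g and Oas1a each carried an overlapping pair of cores, beginning 18 and 12 bases before the start site of Oas1g and 20 and 14 bases before that of Oas1a, inside an unbroken run of 73 bases that both windows share. Isg15 carried 3 overlapping cores that began 78, 72 and 66 bases before its start. The Irf7 window held no match to these letters. The core was present at Oas1g, with the highest fold change, and at Ifih1, with one of the lowest (-0.13 on the log2 scale). At Ifih1 it began 32 bases after the start site, unlike the cores of Oas1g, which began before it. The Ifi44 window, whose gene had a log2 fold change of 0.95, held no match to these letters. It does hold repeats of the reverse complement of GAAA at other spacings, which the search did not cover.

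The oligoadenylate synthetases make 2′-5′ linked oligoadenylates from ATP when they bind double-stranded RNA, and these activate RNase L. This family of 7 had a positive fold change at 7 of 7 members, with a median of 0.47 on the log2 scale, and held the 2 smallest p-values of the 39. Oas1g (ENSMUSG00000066861) spans positions 120876142 to 120887613 of chromosome 5 on the minus strand of GRCm38. It had 4.52, 4.75, 13.0, 4.83 and 10.7 CPM in knockout replicates 1 to 5, against 3.06, 2.76, 2.83, 1.61 and 2.01 CPM in wild type replicates 1 to 5. All knockout libraries exceeded all wild type libraries, and knockout replicates 3 and 5 stood far above the other 3. The means were 7.57 ± 4.02 CPM in knockout and 2.45 ± 0.616 CPM in wild type livers (SD, n = 5 each). By edgeR the log2 fold change stood at 1.63 ± 0.33 (SE, adjusted p = 0.124). DESeq2 gave an adjusted p of 0.00068, and over the main fit and the alternatives it ran from 0.00068 to 0.349. In the authors' deposited table the log2 fold change of Oas1g is 0.81 with a deposited p-value of 1.79e-06, and whether that value was adjusted is not stated. It lies close to the unadjusted p of DESeq2 here, 1.63e-06. For Oas1a the deposited p-value is 0.000139 and the unadjusted p of DESeq2 here was 0.00014. The deposited p-values thus resemble unadjusted ones and are not comparable with the adjusted p-values above. The deposited log2 fold change is also smaller than the one here for Oas1a (0.64 against 1.16), Ifi44 (0.59 against 0.95) and Irf7 (0.50 against 0.83). Deposited fold changes are thus not directly comparable with those here, and the reason was not tested.

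Oas1a (ENSMUSG00000052776; 120896256 to 120907521, minus strand), the neighbour and near copy of Oas1g on chromosome 5, had 11.6, 11.8, 28.9, 12.6 and 23.3 CPM in knockout replicates 1 to 5, against 9.64, 11.1, 7.66, 5.64 and 5.58 CPM in wild type replicates 1 to 5. The genotypes again did not overlap, although wild type replicate 2 came close to the lowest knockout library, and knockout replicates 3 and 5 were again the highest. Its log2 fold change was 1.16 ± 0.29 (edgeR adjusted p = 0.327), and DESeq2 gave an adjusted p of 0.0267, within a range of 0.0267 to 0.759 over the alternatives. Of the 50-base stretches of Oas1a transcripts, 57.6% also occur in Oas1g, and 45.2% of those of Oas1g occur in Oas1a, so the division of reads between them is uncertain. Oas1b, which RefSeq types as a transcribed pseudogene in the reference strain, shared 1.17% of such stretches with Oas1g. Oas1b was scarce, at 0.829, 1.78, 1.88, 0.524 and 1.28 CPM in knockout replicates 1 to 5 and 1.02, 1.18, 0.50, 0.964 and 0.883 CPM in wild type replicates 1 to 5. The genotypes overlapped, and its log2 fold change was 0.47 ± 0.36 (edgeR adjusted p = 1.0).

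Both larger synthetases, with several synthetase domains in one chain, were scarce. Oas2 averaged 4.13 ± 2.09 CPM in knockout and 2.88 ± 0.679 CPM in wild type livers, with a log2 fold change of 0.53 ± 0.34. Oas3 averaged 2.61 ± 0.592 CPM in knockout and 2.22 ± 0.549 CPM in wild type livers (log2 fold change 0.23 ± 0.23). Oasl1, whose protein lacks synthetase activity, and its relative Oasl2 had log2 fold changes of 0.12 and 0.24. The genotypes overlapped for all 4.

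**Figure D2:**
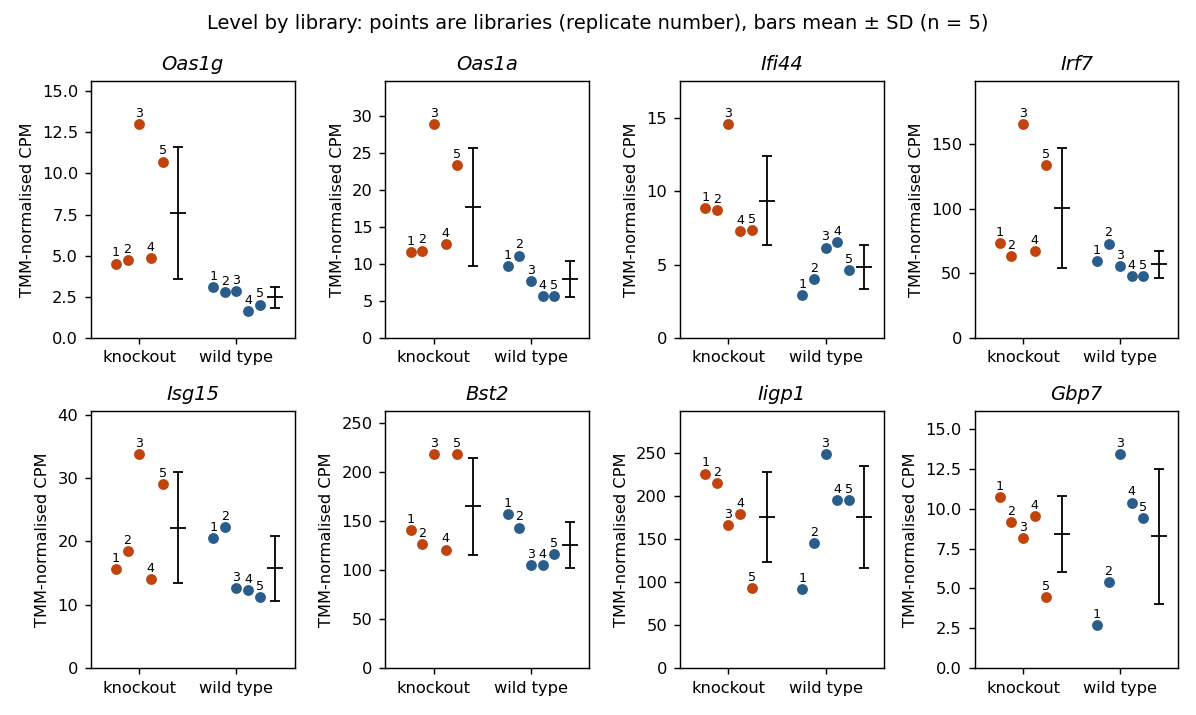
Level of 8 interferon-stimulated genes in each library as CPM scaled with TMM factors, knockout left and wild type right; points are libraries numbered by replicate, bars mean ± SD (n = 5), and each axis starts at 0. Knockout replicates 3 and 5 are the 2 highest points for Oas1g, Oas1a, Irf7, Isg15 and Bst2, whereas Iigp1 and Gbp7 have knockout replicate 5 and wild type replicate 1 as their 2 lowest.

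Irf7, Stat2 and Irf9 form the transcriptional arm of the response. Irf7, the inducible factor that amplifies type I interferon transcription, had 73.1, 63.3, 166, 67.2 and 133 CPM in knockout replicates 1 to 5, against 59.5, 72.9, 55.5, 47.8 and 48.0 CPM in wild type replicates 1 to 5. In CPM, knockout replicates 3 and 5 lay far above all other libraries, and 2 of the other 3 knockout libraries lay below wild type replicate 2. On the deposited TPM, a level scaled for length and depth, knockout replicates 1 and 4 (45.45 and 45.64) exceeded the highest wild type library (34.25). Knockout replicate 2 (29.7) lay below every wild type library on that scale. Irf7 had a log2 fold change of 0.83 ± 0.26 (edgeR adjusted p = 0.594), which was 0.57 without knockout replicate 3. Exons of Phrf1 overlap those of Irf7 on the opposite strand, and since the sources used here do not state whether strand was kept, reads of both cannot be told apart there. Stat2, which carries the activation domain of the ISRE-binding complex, had 34.3, 35.7, 51.6, 30.5 and 45.4 CPM in knockout replicates 1 to 5, against 36.9, 40.2, 36.3, 31.8 and 30.4 CPM in wild type replicates 1 to 5. Its 2 highest libraries were knockout replicates 3 and 5, and the genotypes overlapped (log2 fold change 0.17 ± 0.15, edgeR adjusted p = 1.0, or 0.05 without knockout replicate 3). Irf9, the DNA-binding subunit of that complex, had 34.2, 28.4, 34.6, 26.0 and 35.8 CPM in knockout replicates 1 to 5, against 31.6, 34.4, 29.8, 28.9 and 26.0 CPM in wild type replicates 1 to 5. Its libraries were interleaved between genotypes (log2 fold change 0.08 ± 0.12, edgeR adjusted p = 1.0), and its exons overlap those of Rnf31 on the same strand.

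ISG15 is a ubiquitin-like protein that is coupled to other proteins, and USP18 removes it and also restrains the type I interferon receptor. Isg15 had 15.6, 18.4, 33.8, 14.0 and 29.0 CPM in knockout replicates 1 to 5, against 20.5, 22.2, 12.7, 12.3 and 11.2 CPM in wild type replicates 1 to 5. Knockout replicates 3 and 5 were the highest, wild type replicates 2 and 1 came next, and the genotypes overlapped. The log2 fold change of Isg15 was 0.50 ± 0.28 (edgeR adjusted p = 1.0) and was 0.29 without knockout replicate 3. Usp18 had 20.6, 12.8, 26.3, 20.3 and 21.9 CPM in knockout replicates 1 to 5, against 12.9, 16.0, 15.8, 14.9 and 14.0 CPM in wild type replicates 1 to 5. For Usp18 the 4 knockout replicates 1, 3, 4 and 5 lay above every wild type library and replicate 2 lay below them all, with a log2 fold change of 0.47 ± 0.17 (edgeR adjusted p = 0.751).

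The IFIT proteins bind viral RNA through tetratricopeptide repeats. Ifit3b had 5.80, 7.35, 8.41, 7.83 and 7.32 CPM in knockout replicates 1 to 5, against 3.55, 7.14, 5.58, 7.07 and 4.74 CPM in wild type replicates 1 to 5. Apart from replicate 1, the knockout libraries lay above every wild type library (log2 fold change 0.39 ± 0.19, edgeR adjusted p = 1.0). Its near copy Ifit3, with which it shares 44.5% of its 50-base stretches, had 25.3, 26.3, 24.6, 28.5 and 27.1 CPM in knockout replicates 1 to 5, against 18.7, 30.0, 24.7, 25.4 and 19.3 CPM in wild type replicates 1 to 5. Wild type replicate 2 was the highest of the 10 and wild type replicate 1 the lowest, so the genotypes overlapped (log2 fold change 0.16 ± 0.14). Ifit1 averaged 9.52 ± 1.67 CPM in knockout and 8.45 ± 3.40 CPM in wild type livers, and Ifit2 averaged 3.85 ± 1.09 CPM in knockout and 4.47 ± 1.79 CPM in wild type livers. With a log2 fold change of -0.23 ± 0.30, Ifit2 was the lowest of the 39 in the order of fold changes (edgeR adjusted p = 1.0).

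Among the other effectors, Ifi44 (ENSMUSG00000028037) spans 151730922 to 151749960 of chromosome 3 on the minus strand. This gene of little known function, a common marker of interferon exposure, had 8.87, 8.72, 14.6, 7.30 and 7.35 CPM in knockout replicates 1 to 5, against 2.89, 3.99, 6.16, 6.54 and 4.63 CPM in wild type replicates 1 to 5. The genotypes did not overlap, and here replicate 3 stood alone above the other knockout libraries while replicate 5 was among the lowest of them. The log2 fold change was 0.95 ± 0.25 (edgeR adjusted p = 0.327), 0.73 without knockout replicate 3, and DESeq2 gave an adjusted p of 0.0499, the lowest of a range that reached 0.85 over the alternatives. Ifi27, a small membrane protein, had 109, 153, 198, 109 and 169 CPM in knockout replicates 1 to 5, against 128, 149, 83.0, 62.5 and 66.1 CPM in wild type replicates 1 to 5. In CPM the libraries on the positive side of the first component were the higher ones within both genotypes. The genotypes overlapped in CPM (log2 fold change 0.60 ± 0.26, edgeR adjusted p = 0.995). On the deposited TPM they did not, the lowest knockout library (replicate 1) being at 195.05 and the highest wild type library (replicate 2) at 185.67. Xaf1, a pro-apoptotic partner of XIAP, had 7.46, 7.62, 9.34, 5.99 and 9.52 CPM in knockout replicates 1 to 5, against 6.71, 7.20, 6.24, 5.93 and 5.16 CPM in wild type replicates 1 to 5. All knockout libraries but replicate 4 exceeded all wild type libraries (log2 fold change 0.36 ± 0.16, edgeR adjusted p = 0.999).

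Bst2 encodes tetherin, which holds budding virus particles at the cell surface, and was the most abundant of the 39 per length, at 337.8 ± 135.5 TPM (the deposited level, scaled for length and depth) in knockout and 226.8 ± 24.4 TPM in wild type livers. In CPM it had 141, 127, 218, 121 and 218 in knockout replicates 1 to 5, against 157, 143, 105, 105 and 117 in wild type replicates 1 to 5. In CPM, knockout replicates 3 and 5 were nearly equal and the highest, and the other knockout libraries lay within the range of wild type. On the deposited TPM, knockout replicates 1 and 4 (279.2 and 262.2) also exceeded the highest wild type library (251.7). Knockout replicate 2 (186.9) lay below every wild type library on that scale. The log2 fold change was 0.40 ± 0.20 (edgeR adjusted p = 1.0), or 0.27 without knockout replicate 3. Rtp4, a chaperone-like protein with a zinc finger, had 21.5, 21.4, 25.2, 17.3 and 16.7 CPM in knockout replicates 1 to 5, against 17.5, 24.1, 18.2, 12.8 and 10.8 CPM in wild type replicates 1 to 5. Knockout replicate 3 was the highest, wild type replicates 4 and 5 were the lowest, and the rest overlapped (log2 fold change 0.30 ± 0.20). Ifi35, a cytosolic leucine zipper protein, had 23.6, 34.8, 37.3, 26.0 and 35.1 CPM in knockout replicates 1 to 5, against 38.1, 46.4, 22.1, 23.8 and 23.6 CPM in wild type replicates 1 to 5. Its 5 higher libraries were exactly those on the positive side of the first component, in both genotypes, and its log2 fold change was 0.03 ± 0.22.

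The antiviral enzymes Rsad2 (viperin) and Cmpk2, which are neighbours on chromosome 12, both differed between genotypes by less than the spread of their libraries. Rsad2 averaged 8.49 ± 2.34 CPM in knockout and 8.94 ± 3.50 CPM in wild type livers (log2 fold change -0.08 ± 0.27), and Cmpk2 averaged 7.08 ± 1.28 CPM in knockout and 6.20 ± 1.51 CPM in wild type livers (0.19 ± 0.19). The sign of neither was stable, since Rsad2 was at 0.04 on the deposited TPM and at 0.14 with the side of the first component as a term, and Cmpk2 was at -0.01 without wild type replicates 1 and 2. Parp14, an ADP-ribosyltransferase, and Trim30a, a tripartite motif protein, had log2 fold changes of 0.12 and -0.05, the second of which was 0.04 with total count scaling. The myxovirus resistance genes, which RefSeq types as transcribed pseudogenes in the reference strain, were low. Mx1 averaged 1.79 ± 0.273 CPM in knockout and 1.92 ± 0.334 CPM in wild type livers (log2 fold change -0.09, or 0.01 with total count scaling), and Mx2 averaged 6.24 ± 2.56 CPM in knockout and 4.97 ± 1.33 CPM in wild type livers (0.34 ± 0.27, or 0.10 without knockout replicate 5).

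The cytosolic RNA helicases are the sensors of the list. Ifih1 (MDA5) averaged 21.5 ± 7.01 CPM in knockout and 23.5 ± 10.9 CPM in wild type livers, Ddx58 (RIG-I) 25.1 ± 2.66 CPM in knockout and 24.6 ± 3.12 CPM in wild type livers, and Dhx58 (LGP2) 14.7 ± 0.897 CPM in knockout and 13.6 ± 1.16 CPM in wild type livers. Their log2 fold changes were -0.13 ± 0.32, 0.03 ± 0.12 and 0.12 ± 0.11. The genotype difference was thus within the spread of the libraries for all 3, with Ifih1 the most variable of them.

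The GTPases of defence against intracellular microbes, which respond strongly to interferon gamma, were centred near 0, with 5 of 8 fold changes positive. Their median was 0.01 on the log2 scale, and 5 of them turned sign with other settings. Irgm1 was positive with total count scaling, and Irgm1, Igtp and Gbp2 were positive on the deposited TPM. Iigp1 and Gbp7 were both at -0.20 with voom weights, and at -0.27 and -0.39 without wild type replicates 1 and 2. Iigp1, the most abundant of them, had 226, 215, 165, 178 and 92.4 CPM in knockout replicates 1 to 5, against 91.3, 145, 249, 195 and 195 CPM in wild type replicates 1 to 5. The lowest 2 libraries were knockout replicate 5 and wild type replicate 1, the ranges nearly coincided, and the log2 fold change was 0.00 ± 0.27. Irgm1, which regulates the other immunity-related GTPases, had 60.7, 49.99, 58.2, 60.1 and 47.3 CPM in knockout replicates 1 to 5, against 46.3, 63.8, 59.5, 60.5 and 58.1 CPM in wild type replicates 1 to 5. Its libraries lay close together, with overlapping genotypes and a log2 fold change of -0.06 ± 0.12. Gbp7, a guanylate-binding protein, had 10.7, 9.18, 8.15, 9.55 and 4.45 CPM in knockout replicates 1 to 5, against 2.71, 5.40, 13.4, 10.4 and 9.44 CPM in wild type replicates 1 to 5. Its wild type libraries alone spanned the whole range of the 10, and the log2 fold change was 0.02 ± 0.35. Gbp3 (0.38 ± 0.23), Irgm2 (0.31 ± 0.19), Ifi47 (0.13 ± 0.14, or 0.04 without knockout replicate 3), Gbp2 (-0.08 ± 0.26) and Igtp (-0.09 ± 0.17) had log2 fold changes, given with their SE, less than 2 SE from 0. Igtp shares 11.8% of its 50-base stretches with Irgm2, and their exons overlap on the same strand.

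The fold changes were carried unevenly by the knockout libraries. Knockout replicate 3 was the highest of the 10 libraries for 17 of the 39 genes (43.6%), against 9.93% of all genes tested. Knockout replicates 3 and 5 were together the highest 2 for 14 of the 39 (35.9%), against 5.13% of all genes. These 2 libraries were also the pair most alike in counts across genes (chi-square over its degrees of freedom, 29.79). How far that likeness bears on their shared high values was not tested. Wild type replicate 1 was the lowest for 15 of the 39 (38.5%), against 12.4% of all genes. Averaged over the 39 genes, the deviation of log2 CPM from the mean of the 10 libraries was 0.11, -0.02, 0.38, 0.03 and 0.17 in knockout replicates 1 to 5, against -0.34, -0.05, -0.01, -0.08 and -0.18 in wild type replicates 1 to 5. Knockout replicate 2 lay between wild type replicates 3 and 2, so the list means of the genotypes overlapped. The fold change was positive for 30 of the 39 genes without knockout replicate 3 (median 0.15), for 31 without knockout replicate 5 (0.17) and for 27 without wild type replicate 1 (0.12). Summed TPM of the 39 genes was 944, 707, 1580, 930 and 1284 in knockout replicates 1 to 5, against 731, 726, 749, 772 and 787 in wild type replicates 1 to 5. Bst2 and Ifi27 were the largest parts of these sums. They stood at 501 and 393 TPM in knockout replicate 3 and at 460 and 307 TPM in knockout replicate 5. In wild type livers they averaged 226.8 and 148.7 TPM. The summed TPM of 12 hepatocyte markers reached its minimum at 62879 for knockout (replicate 2) and 63924.5 for wild type (replicate 2), and how far the TPM sums follow the library as a whole was not tested.

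**Figure D3:**
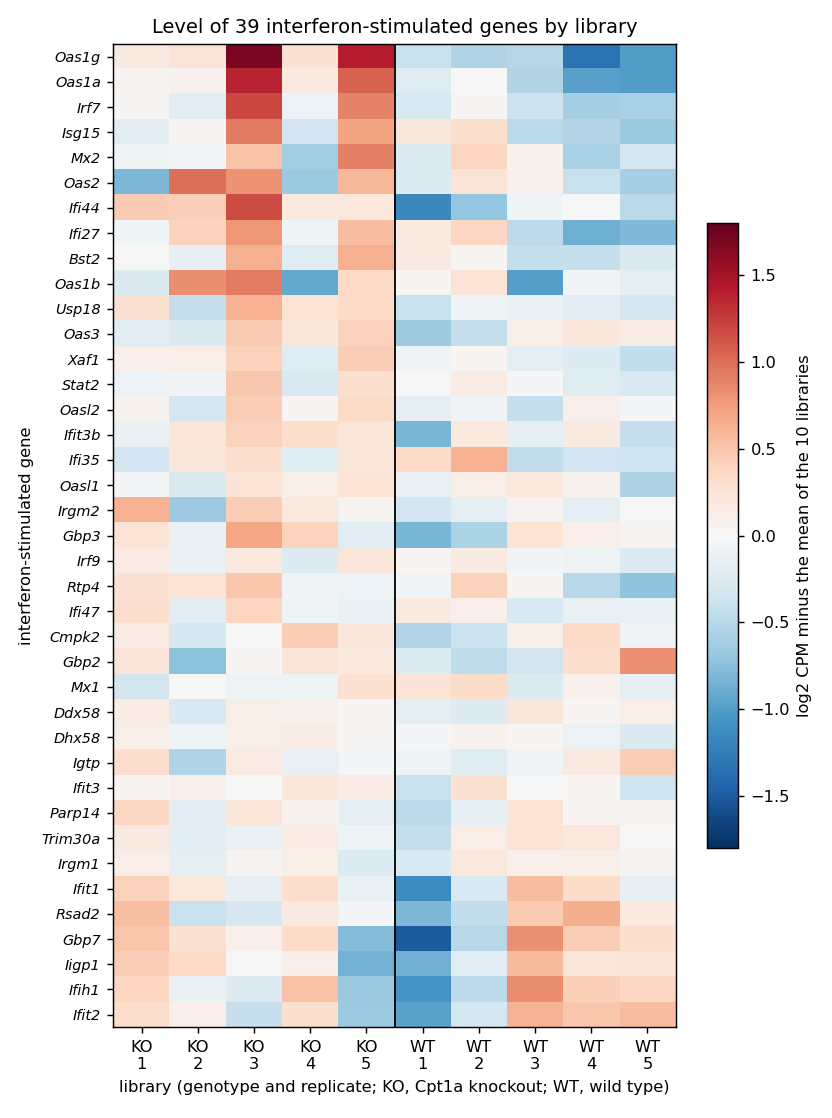
Level of each of the 39 genes (down the page) in each library (across; knockout left of the black line, wild type right of it) as log2 CPM minus the mean of the 10 libraries, ordered by the mean of knockout replicates 3 and 5, which fixes the look of those 2 columns. Oas1g to Isg15 at the top are darkest in these 2 libraries, and the lowest rows, Ifit1 to Ifit2, are low in wild type replicate 1.

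**Figure D4:**
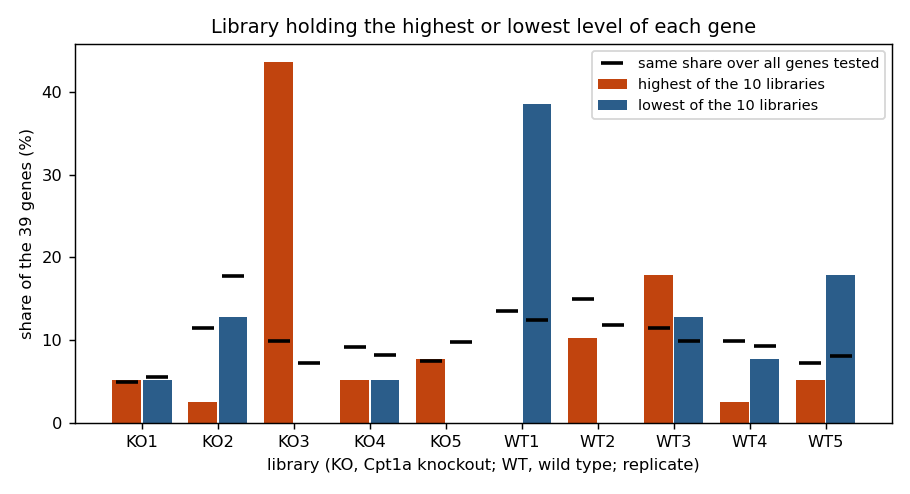
Share of the 39 genes for which each library was the highest (orange) or the lowest (blue) of the 10, knockout libraries left and wild type libraries right; black marks give the same share over all 13619 genes tested. Knockout replicate 3 held the highest level of 43.6% of the 39 genes, and wild type replicate 1 the lowest level of 38.5%.

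Part of the variation followed the division of the libraries along the first component rather than genotype. Ifih1, Rsad2, Gbp7 and Ifit2 were lower in each of the 5 libraries on its positive side than in each of the other 5, which is 4 of 39 genes (10.3%), against 7.25% of all genes tested. Isg15, Ifi27, Ifi35 and Oas1b were higher in each of them, again 4 of 39 (10.3%), against 9.73% of all genes. Both shares are close to the background. The 4 lower genes have deposited lengths of 3818 to 5614 bases and the 4 higher genes of 756 to 1837 bases, and across the 39 genes the difference between the sides had a Spearman rho of -0.54 with length, against -0.47 across all 13619 genes. Genes are not independent replicates and share the 10 libraries, so this is a description, and the part of gene length in the differences was not tested.

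Genotypes were also set side by side within each side of the component, with 3 knockout and 2 wild type libraries on the positive side and 2 knockout and 3 wild type libraries on the negative side. The mean log2 CPM of the knockout exceeded that of wild type for 34 of 39 genes on the positive side and 25 of 39 on the negative side, and for 21 of 39 on both. Over all 13619 genes tested the shares were 47.6% on the positive side, 48.2% on the negative side and 21.7% on both. Oas1g exceeded it by 1.56 on the positive and 1.13 on the negative side, and Oas1a by 0.94 and 0.95. Ifi44 exceeded it by 1.51 and 0.49, and Ifi27 by 0.32 and 0.64, and for these 4 genes the knockout libraries lay wholly above the wild type libraries on both sides. That is 4 of 39 genes (10.3%), against 1.62% of all genes tested, in groups of 2 and 3 libraries, and none of these shares was tested. For Irf7 the excess was 0.76 and 0.48, with an overlap on the positive side.

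**Figure D5:**
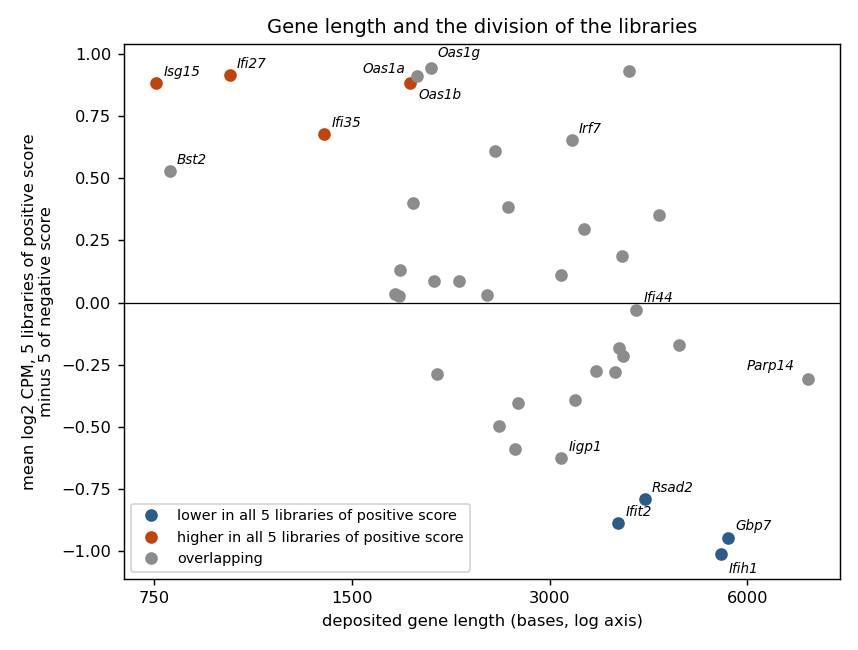
Difference in mean log2 CPM between the 5 libraries on the positive side and the 5 on the negative side of the first principal component (vertical) against deposited gene length in bases (horizontal, log axis), 1 point per gene of the 39; coloured points are genes whose 5 libraries on one side lie wholly below (blue) or above (orange) the other 5. The blue genes are 3818 to 5614 bases long and the orange ones 756 to 1837 bases.

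Interferons themselves were at or below the detection floor. Of 21 interferon genes listed, 18 had no count in any library, all listed Ifna genes and Ifnb1 among them, which allows up to 0.111 to 0.146 CPM in a library. Ifng had 3 counts over the knockout and 4 over the wild type libraries, and Ifnk and Ifnz had a single count each. None could be tested, and a difference in ligand transcripts was not detectable at this depth. Among receptors and their proximal signalling, 0 of 18 tested genes had a changed level by edgeR's test, against 0.132% of all genes. Where 4.82% of all genes had an unadjusted p under 0.05, 1 of the 18 did. This was Ifngr2, a subunit of the interferon gamma receptor, at 28.1 ± 3.98 CPM in knockout and 22.4 ± 1.92 CPM in wild type livers (log2 fold change 0.33 ± 0.12, edgeR adjusted p = 0.822). The type I receptor subunit Ifnar1 averaged 37.3 ± 6.56 CPM in knockout and 34.0 ± 1.27 CPM in wild type livers. Irf2, which competes with activating factors at the ISRE, averaged 46.1 ± 9.84 CPM in knockout and 57.2 ± 6.52 CPM in wild type livers (log2 fold change -0.31 ± 0.15, adjusted p = 1.0).

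Of 30 tested genes of nucleic acid sensing and interferon induction, 0 passed edgeR's test (0.132% of all genes). Where 4.82% of all genes had an unadjusted p under 0.05, 1 of the 30 did. Zbp1, a sensor of left-handed nucleic acid, had 11.6, 10.3, 22.5, 9.36 and 17.6 CPM in knockout replicates 1 to 5, against 9.59, 10.9, 7.29, 7.07 and 6.89 CPM in wild type replicates 1 to 5 (log2 fold change 0.78 ± 0.24, edgeR adjusted p = 0.589). Its 2 highest libraries were again knockout replicates 3 and 5, and wild type replicate 2 lay within the knockout range. Irf5 averaged 9.79 ± 1.31 CPM in knockout and 12.3 ± 2.52 CPM in wild type livers (-0.33 ± 0.15).

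A further 68 tested interferon-stimulated genes outside the 39 had no call by edgeR either, with 7 at an unadjusted p under 0.05, 6 of them higher in the knockout. Over all genes tested, edgeR called 0.132%. At an unadjusted p under 0.05 stood 4.82% of all genes in either direction and 2.56% that were higher. Fold changes of these interferon-stimulated genes were positive for 38 of 68, with a median of 0.04, where 44.7% of all genes were positive. Ifi27l2b (log2 fold change 0.72 ± 0.21) and Apol9a (0.54 ± 0.16) had the smallest p-values among them, with edgeR adjusted p-values of 0.492 and 0.493. Genes of antigen presentation, which interferon also induces, had 0 calls among 28 tested, 4 at an unadjusted p under 0.05, all higher in the knockout, and a positive fold change at 22 of 28 (median 0.15). They were led by Nlrc5, the transactivator of class I genes (20.01 ± 6.04 CPM in knockout and 13.7 ± 0.497 CPM in wild type livers, log2 fold change 0.55 ± 0.19), and by the class I gene H2-Q7 (0.51 ± 0.18). Knockout replicates 3 and 5 were the highest 2 libraries for 8 of the 28 antigen presentation genes (28.6%) and for 8 of the 68 further interferon-stimulated genes (11.8%). Over all genes tested this share was 5.13%, and none of these shares was tested.

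Markers of the cells that can carry such transcripts were read in the same libraries. No marker of any of the 9 cell types passed edgeR's test, against 0.132% of all genes tested. Summed TPM of 18 Kupffer cell and macrophage markers ran from 452.6 to 737.8 in knockout and from 524.9 to 718.1 in wild type livers, with knockout replicates 3 and 5 at 656.6 and 715.0, and 7 of 18 fold changes were positive. The Kupffer cell lectin gene Clec4f averaged 126.0 ± 10.3 CPM in knockout and 128.1 ± 14.3 CPM in wild type livers. Dendritic cell markers other than Bst2, which is itself one of the 39, summed to 5.88 to 8.37 TPM in knockout and 4.94 to 11.3 TPM in wild type livers, with 7.58 and 7.32 TPM in knockout replicates 3 and 5. With Bst2 counted, fold changes were negative for 8 of 10 tested dendritic cell markers. Siglech, which marks plasmacytoid dendritic cells, had 80 counts over the knockout and 87 over the wild type libraries. T and NK cell markers summed to 4.61 to 11.1 TPM in knockout and 7.33 to 13.1 TPM in wild type livers, and B and plasma cell markers to 33.0 to 57.0 TPM in knockout and 32.9 to 71.3 TPM in wild type livers. Neutrophil markers summed to 10.5 to 23.9 TPM in knockout and 14.0 to 46.3 TPM in wild type livers, and endothelial markers to 130.1 to 206.0 TPM in knockout and 131.1 to 195.2 TPM in wild type livers. Fold changes were negative for 8 of 10 tested T and NK cell, 5 of 7 B and plasma cell and 5 of 5 neutrophil markers. They were also negative for 10 of 11 endothelial and 9 of 12 hepatocyte markers. Over all 13619 genes tested, 7537 had a negative fold change and 44.7% a positive one. The marker lists are short, and none of their counts was tested against that share. Stellate cell and fibroblast markers had negative fold changes at 11 of 11 genes, with sums of 86.5 to 137.8 TPM in knockout and 74.1 to 166.5 TPM in wild type livers. Cholangiocyte markers had negative fold changes at 4 of 5 tested genes, with sums of 18.3 to 46.3 TPM in knockout and 26.4 to 116.0 TPM in wild type livers, and were lowest in knockout replicates 5 and 3, at 18.3 and 19.95 TPM. The part of these cell types in the values of the 39 genes was not tested. The ranges overlapped between genotypes for each cell type, and knockout replicates 3 and 5 stood within the range of the other libraries for macrophage and dendritic markers.

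Per length, the order of the 39 genes by mean TPM began with Bst2, followed by Ifi27 at 260.6 ± 87.2 TPM in knockout and 148.7 ± 32.1 TPM in wild type livers. Iigp1 averaged 65.1 ± 18.8 TPM in knockout and 63.6 ± 28.1 TPM in wild type livers. For Irf7 the mean was 65.7 ± 37.1 TPM in knockout and 33.3 ± 0.805 TPM in wild type livers, and for Isg15 it was 48.8 ± 24.2 TPM in knockout and 30.0 ± 4.55 TPM in wild type livers. Iigp1 and Irf7 did not differ from each other beyond their spread in knockout livers. Ifi35, Irgm1 and Rtp4 completed the 8 most abundant genes. The other 31 genes averaged less, and their range over the 10 libraries is given for those not shown by library. Among the synthetases and IFIT genes, TPM ran from 0.66 to 2.57 for Oas2, 0.28 to 0.98 for Oas3, 4.26 to 9.32 for Oasl1, 2.78 to 7.89 for Oasl2, 1.36 to 5.27 for Ifit1 and 0.64 to 2.01 for Ifit2. The helicase genes spanned 1.72 to 7.56 for Ifih1, 4.66 to 9.67 for Ddx58 and 5.11 to 9.5 for Dhx58 in TPM, the 2 Mx genes 0.55 to 1.5 for Mx1 and 2.3 to 6.86 for Mx2. For the GTPases the TPM range was 5.94 to 19.7 for Irgm2, 9.16 to 26.1 for Igtp, 8.79 to 20.2 for Ifi47, 1.86 to 8.15 for Gbp2 and 1.88 to 7.57 for Gbp3, and for the remaining effectors 1.12 to 4.11 for Rsad2, 1.24 to 3.37 for Cmpk2, 2.26 to 5.17 for Parp14 and 1.42 to 6.9 for Trim30a. Mx1, Oas1b and Oas3 averaged the least. Oas1g, with the largest fold change, averaged 6.84 TPM in knockout and 2.18 TPM in wild type livers.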

How the data were processed

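Liver RNA of 5 Cpt1a L-/- and 5 wild type mice was sequenced. The submitters' processing notes name fastp, HISAT, RSEM and the build GRCm38.p5. Their versions and settings, and whether strand was kept, are not stated. The authors deposited 1 table that holds, for each library, an expected count and a TPM, and for each gene their own log2 fold change and p-value. Gene length in bases, treated as a score, is also deposited. Columns named CON were matched to wild type titles by number. Expected counts, 7.68% of them fractional, were rounded to whole numbers. The 5 rows without a gene were left out.

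Genes were filtered with filterByExpr, scaled with TMM factors and tested on genotype over all 13619 genes with edgeR 4.0.16 (quasi-likelihood, robust; R 4.3.3), with Benjamini-Hochberg adjustment and a threshold of 0.05. CPM values are TMM-scaled and SEs come from the F statistic. Floors cover counting error only, whereas SEs and SDs include the variation between libraries. Library pairs differed beyond counting noise (lowest chi-square over its degrees of freedom, 29.79, for knockout replicates 3 and 5). The 39 genes and all context lists were chosen with earlier results of these data known. Values in every library are given for the 8 genes with the smallest p, the 8 with the highest mean TPM, the 4 with the largest ratio of highest to lowest library, the transcription factors and the near copies, and from each context list the 2 genes with the smallest p are named, except that cell marker lists are given as sums. Zbp1 was given by library for its pattern, and Alb, Ifnar1, Clec4f and Siglech were chosen after their values were seen. Near copies were measured as shared 50-base stretches of GENCODE transcripts. Alternatives were other scalings and filters, DESeq2 1.42.0, limma 3.58.1 (voom with weights, and log2(TPM + 1) on the deposited TPM), the replicate block, libraries left out, near copies summed and, added after seeing the data, the side of the first component as a term.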

Additional observations from a re-analysis of the deposited data

Results flagged for a closer look

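Among 78 groups of 5 libraries (39 genes, 2 genotypes), 3 held a library set apart from the other 4 by more than Dixon's criterion, where chance alone marks about 1 in 20 groups. Ifi44 in knockout replicate 3 stood high, at 14.6 CPM, and without that library its log2 fold change was 0.73. Ddx58 in knockout replicate 2 stood low, at 20.5 CPM, and Gbp2 in the same library stood low, at 5.52 CPM.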

How the results depend on the processing

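Over 23 alternatives, 22 of them planned, the count of the 39 genes called stayed at 0 except with DESeq2, which called 3 (Oas1g, Oas1a and Ifi44), and the median log2 fold change of the list stayed between 0.12 and 0.27. The count over all genes was 18 and became 93 with DESeq2, 11 with limma on log2(TPM + 1), 10 without wild type replicates 1 and 2 together, 36 with the side of the first component as a term, and 6 to 21 when 1 library was left out, with 6 without knockout replicate 3, knockout replicate 5 or wild type replicate 3, 8 without knockout replicate 2 and 9 without wild type replicate 2. The replicate block gave 26 genes and 0 of the 39, with a list median of 0.20. Its numbers did not pair the libraries, since same-numbered deviations correlated at -0.41, 0.39, 0, 0.43 and -0.19 for numbers 1 to 5. No context gene was called in any alternative, and Cpt1a was called in each. Fold changes of genes near 0 turned sign under single settings, and the cause was not tested. With total count scaling, which moved the median of all genes by 0.09, Mx1 was at 0.01, Irgm1 at 0.04 and Trim30a at 0.04. On log2(TPM + 1), Rsad2 was at 0.04, Igtp at 0.01, Irgm1 at 0.04 and Gbp2 at 0.05. With voom weights Ddx58 was at -0.00, Iigp1 at -0.20 and Gbp7 at -0.20, and with no filter Iigp1 was at -0.00. Without wild type replicates 1 and 2, Ifit1 was at -0.12, Mx1 at 0.08, Ddx58 at -0.08, Iigp1 at -0.27, Gbp7 at -0.39, Parp14 at -0.03 and Cmpk2 at -0.01. With near copies summed, the Mx pair was at 0.23 and the Irgm pair at 0.09. With the side of the component as a term, Ifit2 was at 0.01, Rsad2 at 0.14, Ifih1 at 0.15, Ifi35 at -0.07, Gbp2 at 0.05 and Trim30a at 0.00. Leaving out 1 library gave ranges of -0.01 to 0.36 for Ifit1, -0.25 to 0.10 for Rsad2, -0.02 to 0.09 for Ddx58, -0.33 to 0.10 for Ifih1, -0.07 to 0.22 for Ifi35, -0.19 to 0.02 for Igtp, -0.16 to 0.16 for Iigp1, -0.19 to 0.17 for Gbp2, -0.21 to 0.26 for Gbp7 and -0.15 to 0.00 for Trim30a. At 0.111 to 0.146 CPM for 3 counts, interferon transcripts could not be compared.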
